A study of Mus musculus with 12 samples.

Results

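The 9 genes described here mark dendritic cells, the cells that carry antigen to T cells in lymph nodes. Itgax, Zbtb46 and Flt3 are shared by conventional dendritic cells as a class, and Sirpa, Irf4, Itgam, Notch2, Zeb2 and Klf4 are tied to their type 2 branch (cDC2). They were chosen by name for these roles, with earlier results of these data known. All 9 were found among the 24499 gene symbols of the deposited count table and passed the filter on low counts. The table holds 12 libraries of lymph node cells enriched on CD11c beads. Of these, 6 came from APOE-KO mice, which lack apolipoprotein E, and 6 from wildtype C57BL6 mice. Every mouse had been injected with E0771-cOC tumour cells (E0771 is a line from a mouse mammary carcinoma), and the tumour-draining nodes were removed on day 9, minced and digested with collagenase I/IV and DNAse I. The sources used here do not give the background strain of the APOE-KO mice, the way their allele was made, or age and sex. They do not say that each library is 1 animal either, so the p-values speak only of the spread among these libraries, part or all of which may be technical.

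In the mouse, conventional dendritic cells arise from precursors that depend on the receptor FLT3, and the zinc finger factor ZBTB46 is made in that lineage but not in most macrophages. The type 2 branch, which presents antigen mainly to CD4 T cells, needs IRF4, KLF4 and ZEB2 in its nucleus and NOTCH2 at its surface for some of its subsets. CD11b (Itgam) and SIRP alpha (Sirpa) are the surface proteins by which these cells are usually sorted. None of these genes is private to cDC2: macrophages and monocytes also make Sirpa, Itgam, Klf4 and Zeb2, plasmacytoid dendritic cells make Flt3 and Zeb2, B cells make Notch2 and Irf4, and endothelium makes Klf4 and Zbtb46.

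Library totals ran from 3175135 to 4497466 counts in APOE-KO and from 2381477 to 4898360 in wildtype. Apoe itself stood at 2.75 to 10.7 CPM (reads scaled to a common library size) in APOE-KO and at 409 to 531 CPM in wildtype, as the labels require. Itgax (gene of the bead antigen CD11c), Zbtb46 and Flt3, markers of conventional dendritic cells but not private to them, had reads in every library. With H2-Aa, H2-Ab1 and Cd74 they summed to 11162 to 13304 CPM in APOE-KO and 10293 to 14757 CPM in wildtype, but H2-Aa, H2-Ab1 and Cd74 made up nearly all of this sum, and B cells and macrophages, whose markers were present, make these MHC class II pathway genes too. APOE-KO library 5 and wildtype libraries 1 and 3 stood apart in principal components, and the ribosomal RNA gene Rn45s took 11.3% to 21.6% of the counts in APOE-KO and 2.71% to 32.2% in wildtype. Markers of other cells were also there. B cell markers summed to 617 to 763 CPM in APOE-KO and 773 to 986 CPM in wildtype, and plasmacytoid markers to 1176 to 1549 CPM in APOE-KO and 1481 to 3183 CPM in wildtype. Macrophage markers summed to 1175 to 1462 CPM in APOE-KO and 1274 to 1648 CPM in wildtype, and monocyte markers to 675 to 905 CPM in APOE-KO and 757 to 1055 CPM in wildtype. Neutrophil markers summed to 22.04 to 76.6 CPM in APOE-KO and 19.2 to 37.0 CPM in wildtype, T cell markers to 337 to 423 CPM and 304 to 413 CPM, NK cell markers to 19.2 to 143 CPM and 54.5 to 223 CPM, endothelial and stromal markers to 121 to 159 CPM and 134 to 235 CPM, and epithelial markers to 0.848 to 76.0 CPM and 33.99 to 75.4 CPM, in the same order of genotypes. Klra8, Ccl21a and Wap, of the NK cell, stromal and epithelial lists, had no read in any library.

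The question the series asks of these cells is what the loss of APOE changes in them. Of the 9 genes, Sirpa was higher in APOE-KO, and the other 8 did not pass the test. That is 1 of 9 genes, where 1.49% of all 10714 genes tested passed in either direction. Of all genes, 1.08% passed as higher and 0.411% as lower in APOE-KO, the shares to set beside the lists below as well. Groups did not overlap for 1 of the 9 genes, again Sirpa, as for 1.77% of all genes. The log2 fold change (APOE-KO over wildtype) was positive for 4 of the 9 and negative for 5, with a median of -0.07, and the median over all tested genes was -0.02. Since each library is a mixture, fewer cells of a type and less RNA per cell cannot be told apart.

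**Figure D1:**
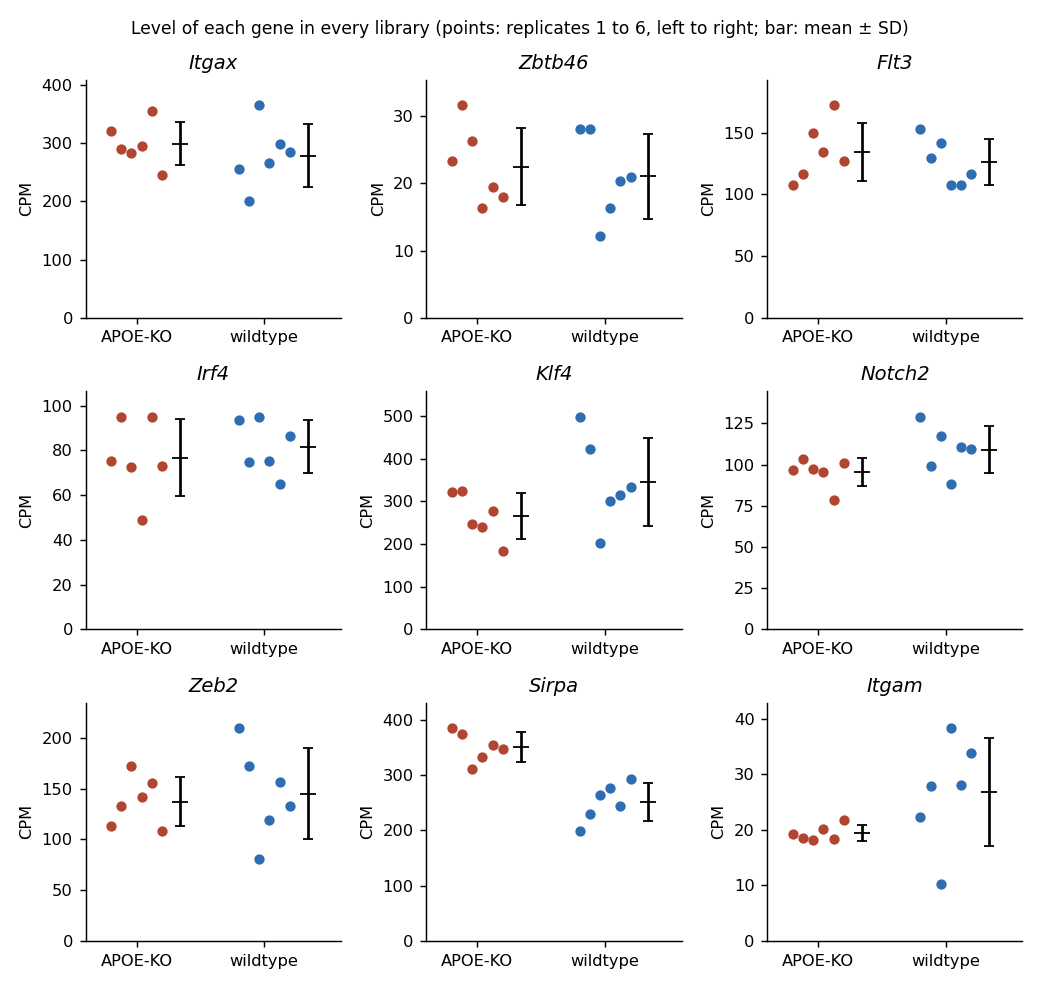
Level of each of the 9 genes in CPM (linear axis from 0), 1 point per library, APOE-KO left and wildtype right, with the mean and SD of 6 libraries beside each group. All 6 APOE-KO points of Sirpa lie above all 6 wildtype points, and the groups overlap in the other 8 panels.

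The pan-dendritic genes did not differ detectably between the genotypes. Itgax encodes CD11c, the integrin alpha chain that the beads bind (chromosome 7, 128129547 to 128150657, plus strand, GRCm38). Its lowest, median and highest levels were 246, 293 and 355 CPM in APOE-KO and 201, 275 and 365 CPM in wildtype. Both the lowest and the highest library of all 12 were wildtype, so the APOE-KO libraries lay inside the wildtype range. Cells of both genotypes were enriched on CD11c, so the level of Itgax is not independent of that selection. The log2 fold change of Itgax was 0.10 ± 0.14 (SE; 95% interval -0.18 to 0.38; adjusted p = 0.841, edgeR's quasi-likelihood test with Benjamini-Hochberg adjustment, 6 libraries a group, as for every adjusted p here).

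Zbtb46, the transcription factor of the conventional lineage (chromosome 2, 181387762 to 181459426, minus strand), was a low gene with 496 reads over the APOE-KO libraries and 425 over the wildtype ones. Its level ran from 16.4 through a median of 21.4 to 31.6 CPM in APOE-KO and from 12.2 through 20.6 to 28.2 CPM in wildtype. The groups covered nearly the same range, and the log2 fold change was 0.11 ± 0.25 (95% interval -0.40 to 0.62, adjusted p = 0.918). Flt3, the receptor for the growth factor on which dendritic precursors depend (chromosome 5, 147330741 to 147400489, minus strand), had lowest, median and highest levels of 108.1, 131 and 172 CPM in APOE-KO and 107.6, 123 and 153 CPM in wildtype. APOE-KO library 5 was the highest of the 12, and the log2 fold change was 0.10 ± 0.14 (95% interval -0.20 to 0.39, adjusted p = 0.857). For Itgax and Flt3 the intervals leave room for a difference of up to 0.38 and 0.39 on the log2 scale, and for Zbtb46 for one of up to 0.62.

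Of the nuclear factors of cDC2, Klf4 had the largest difference and none passed. Irf4 encodes an interferon regulatory factor that cDC2 need for survival and migration (chromosome 13, 30749226 to 30766976, plus strand). Its lowest, median and highest levels were 48.9, 74.2 and 95.01 CPM in APOE-KO and 65.1, 80.9 and 94.98 CPM in wildtype. The lowest library was APOE-KO library 4, and the highest of each group reached nearly the same level. The log2 fold change was -0.09 ± 0.16 (95% interval -0.43 to 0.24, adjusted p = 0.891).

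Klf4, a Krüppel-like zinc finger factor (chromosome 4, 55527143 to 55532466, minus strand), had lowest, median and highest levels of 183, 261 and 323 CPM in APOE-KO and 202, 324 and 498 CPM in wildtype. All 6 APOE-KO libraries were below the wildtype median, yet wildtype library 3 was lower than 5 of them, so the groups overlapped. The log2 fold change was -0.38 ± 0.18 (95% interval -0.74 to -0.02), with an unadjusted p of 0.0411, a level that 12.1% of all genes reached, and an adjusted p of 0.386. It was -0.25 without wildtype library 1, the highest of the 12, and -0.03 and -0.02 with plasmacytoid or B cell markers as a covariate (adjusted p = 0.977 and 0.997). Zeb2, a zinc finger repressor (chromosome 2, 44983632 to 45117395, minus strand), had lowest, median and highest levels of 108, 137 and 172 CPM in APOE-KO and 80.5, 145 and 209 CPM in wildtype. Its wildtype libraries spanned both extremes, and the log2 fold change was -0.07 ± 0.18 (95% interval -0.44 to 0.30, adjusted p = 0.926). Zeb2 overlaps genes annotated on the other strand that hold 793 reads over the 12 libraries. It had 3044 reads over APOE-KO and 2914 over wildtype, and the sources used here do not say whether counting used the strand.

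Notch2, the receptor whose cleaved form acts with RBPJ in the nucleus (chromosome 3, 98013527 to 98150361, plus strand), had lowest, median and highest levels of 78.8, 97.0 and 104 CPM in APOE-KO and 88.5, 110.1 and 129 CPM in wildtype. All 6 APOE-KO libraries were below the wildtype median, and APOE-KO library 5 was lower than every wildtype library. The groups overlapped, and the log2 fold change was -0.19 ± 0.13 (95% interval -0.46 to 0.08, adjusted p = 0.622).

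Sirpa was the member that rose. It encodes SIRP alpha, an inhibitory receptor that binds CD47 on other cells and recruits phosphatases of the SHP family through its tail (chromosome 2, 129592835 to 129632228, plus strand). Its lowest, median and highest levels were 311, 351 and 384 CPM in APOE-KO and 198, 254 and 293 CPM in wildtype. Every APOE-KO library was above every wildtype library, and the lowest APOE-KO library, number 3, was above the highest wildtype library, number 6. The means were 351 ± 26.7 CPM in APOE-KO and 251 ± 34.2 CPM in wildtype (SD, n = 6 each), a 1.397-fold difference with a log2 fold change of 0.48 ± 0.12 (SE; 95% interval 0.24 to 0.73; adjusted p = 0.0382).

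The size of the Sirpa difference was steadier than its call. With 1 library left out, the log2 fold change ranged from 0.42 to 0.53 and the adjusted p from 0.0233 to 0.0964: the gene passed without wildtype library 3, 4 or 6 and did not pass without any 1 of the other 9 libraries. Without APOE-KO library 5 and wildtype libraries 1 and 3 together it was 0.42, with an adjusted p of 0.0669. Plasmacytoid markers, 4 of 10 of which fell, moved with the genotype as well, and with their summed level as a covariate the log2 fold change of Sirpa was 0.29 and its adjusted p 0.504. The summed B cell markers did not overlap between the genotypes, and with them as a covariate the log2 fold change was 0.49 and the adjusted p 0.499. The adjusted p was 0.316 with total counts as the only scaling and 0.145 with a replicate block, which has no basis in pairing. With epithelial markers as a covariate it was 0.471. The plasmacytoid, B cell and epithelial sums are poorly separated from the genotype, so those covariate fits cannot tell marker level from genotype. Of 14 alternatives other than single libraries left out, Sirpa passed in 8, among them DESeq2 (adjusted p = 0.0029) and limma-voom (adjusted p = 0.0279). Macrophages also make Sirpa, and of their 12 tested markers 1 rose and 3 fell. The part of other cells in the Sirpa difference was not tested. The related genes Sirpb1a and Sirpb1b, with which reads may be shared, stood at 2.14 and 6.34 CPM in APOE-KO and at 3.08 and 2.46 CPM in wildtype.

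Itgam, the other surface marker, did not pass, and its difference had the opposite sign. It encodes CD11b, which pairs with the beta2 chain as the complement receptor Mac-1 (chromosome 7, 128062640 to 128118491, plus strand, next to Itgax). Its lowest, median and highest levels were 18.2, 18.8 and 21.8 CPM in APOE-KO and 10.3, 28.0 and 38.2 CPM in wildtype. The APOE-KO libraries were tightly grouped (coefficient of variation 7.27%) and lay below all wildtype libraries but library 3, while the wildtype libraries spread widely (36.4%). The log2 fold change was -0.46 ± 0.25 (95% interval -0.98 to 0.06, adjusted p = 0.479), from 443 reads over APOE-KO and 571 over wildtype. It was -0.63 without wildtype library 3, -0.32 without wildtype library 4, -0.71 without the 3 libraries that stood apart, -0.28 in limma-voom, and -0.71 and -0.25 with plasmacytoid or B cell markers as a covariate. The adjusted p stayed above the threshold in all 12 fits that left out 1 library (0.128 to 0.722).

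**Figure D2:**
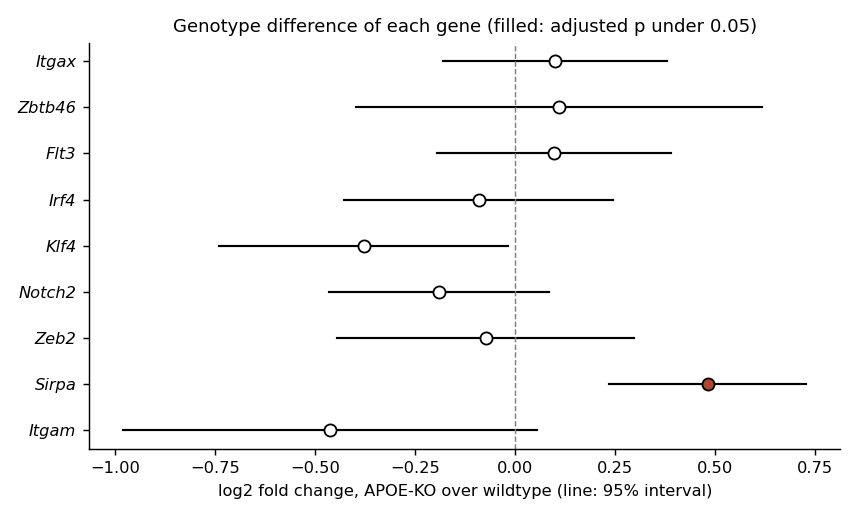
Log2 fold change of each gene, APOE-KO over wildtype, with its 95% interval. The interval of Sirpa, 0.24 to 0.73, lies above 0 and its adjusted p is under 0.05 (filled), that of Klf4 ends at -0.02 without passing after adjustment, and the other 7 intervals span 0.

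Setting each gene against Itgax in the same library removes the scaling between libraries. The log2 ratio of Sirpa reads to Itgax reads was 0.24 ± 0.18 in APOE-KO and -0.14 ± 0.27 in wildtype (SD, n = 6 each), running from -0.002 to 0.50 in APOE-KO and from -0.47 to 0.20 in wildtype. That of Klf4 was -0.19 ± 0.23 and 0.28 ± 0.70, and that of Itgam -3.93 ± 0.26 and -3.46 ± 0.87, in APOE-KO and wildtype. The groups overlapped for all 8 ratios to Itgax, that of Sirpa included. Flt3 and Zbtb46 kept nearly equal mean ratios, at -1.15 and -3.75 in APOE-KO and -1.13 and -3.75 in wildtype.

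Of the 36 pairs among the 9 genes, none passed after adjustment, and the highest r were those among Klf4, Zbtb46 and Zeb2. After each genotype's mean log2 CPM was subtracted, Klf4 and Zbtb46 deviated most closely together over the 12 libraries (Pearson r = 0.85, permutation p = 0.00172, adjusted p = 0.0619 over 36 pairs; Spearman rho = 0.85, permutation p = 0.00172, adjusted p = 0.0619). Zeb2 was next, with r = 0.74 against Klf4 (permutation p = 0.0177, adjusted p = 0.218; rho = 0.62, permutation p = 0.0496, adjusted p = 0.379) and 0.71 against Zbtb46 (permutation p = 0.0182, adjusted p = 0.218; rho = 0.57, permutation p = 0.0737, adjusted p = 0.379). Sirpa ran against Zeb2 (r = -0.70, rho = -0.73, permutation p = 0.0329 and 0.0164, adjusted p = 0.296 and 0.196). Without the pair of libraries farthest from the median of the first gene, r was 0.72 for Klf4 with Zbtb46, 0.32 for Zeb2 with Klf4, 0.41 for Zeb2 with Zbtb46 and -0.67 for Sirpa with Zeb2, so the relations of Zeb2 with Klf4 and Zbtb46 rest in part on those libraries.

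**Figure D3:**
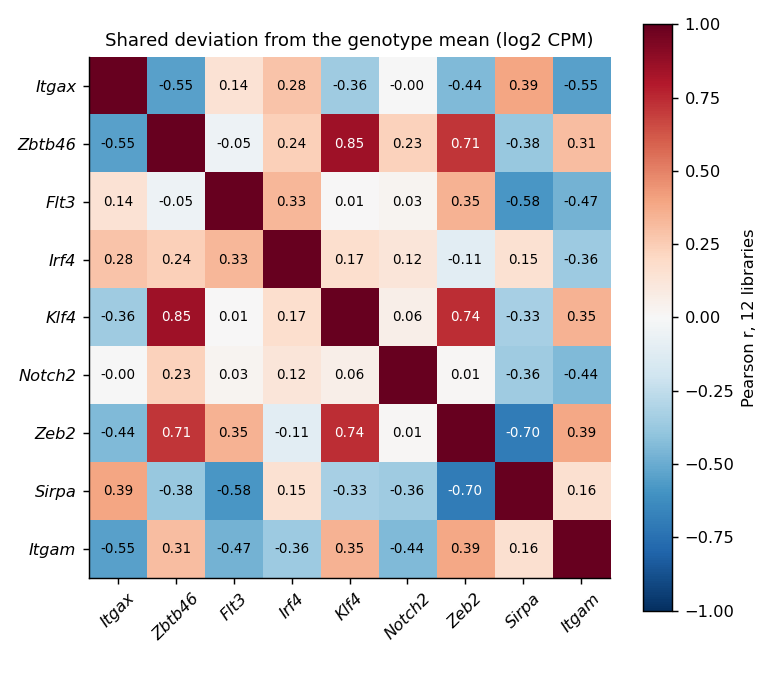
Pearson r between the genes over 12 libraries, from log2 CPM after subtracting each genotype's mean; red is positive and blue negative. Zbtb46, Klf4 and Zeb2 share values of 0.71 to 0.85, and Sirpa with Zeb2 has -0.70.

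The set of Zeb2, Zbtb46 and Klf4 followed the share of counts that Rn45s took in each library. Whether that share comes from the preparation or from the cells captured was not tested. With the genotype means removed, r against the log2 Rn45s share was 0.89 for Zeb2 (permutation p = 0.00098, adjusted p = 0.00711 over the 9 genes; rho = 0.79, permutation p = 0.00431, adjusted p = 0.0350). For Zbtb46 r was 0.84 (permutation p = 0.00158, adjusted p = 0.00711; rho = 0.75, permutation p = 0.00778, adjusted p = 0.0350). For Klf4 r was 0.76 (permutation p = 0.0103, adjusted p = 0.0309; rho = 0.71, permutation p = 0.0238, adjusted p = 0.0714). Without the pair of libraries farthest from the median share, r was 0.65 for Zeb2, 0.69 for Zbtb46 and 0.36 for Klf4, so that of Klf4 rests on those libraries. Sirpa and Itgax leaned the other way, at r = -0.56 and -0.53 (permutation p = 0.157 and 0.169, adjusted p = 0.304 for both; rho = -0.52 and -0.50, permutation p = 0.148 and 0.146, adjusted p = 0.266 for both). Flt3 and Irf4 were near 0, at r = 0.12 and -0.03 (permutation p = 0.710 and 0.904, adjusted p = 0.799 and 0.904; rho = 0.28 and -0.07, permutation p = 0.387 and 0.826, adjusted p = 0.580 and 0.912). Itgam and Notch2 had r = 0.41 and 0.32 (permutation p = 0.401 and 0.422, adjusted p = 0.543 for both). Their rho was -0.05 and 0.20 (permutation p = 0.912 and 0.5715, adjusted p = 0.912 and 0.735). Without the pair of libraries farthest from the median share, r was -0.38 for Itgam and 0.52 for Notch2. Since Rn45s and the genes are counted in the same libraries, these are descriptions of the libraries. The log2 Rn45s share was also added to the model, an alternative picked once the data had been looked at. The log2 fold change of Klf4 was then -0.47 and its adjusted p 0.0486, a call that no other alternative gave. Klf4 was near 0 with plasmacytoid or B cell markers, but those sums are poorly separated from the genotype. In the fit with the Rn45s share, Sirpa was 0.53 with an adjusted p of 0.00606, and Zbtb46 turned to -0.03.

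**Figure D4:**
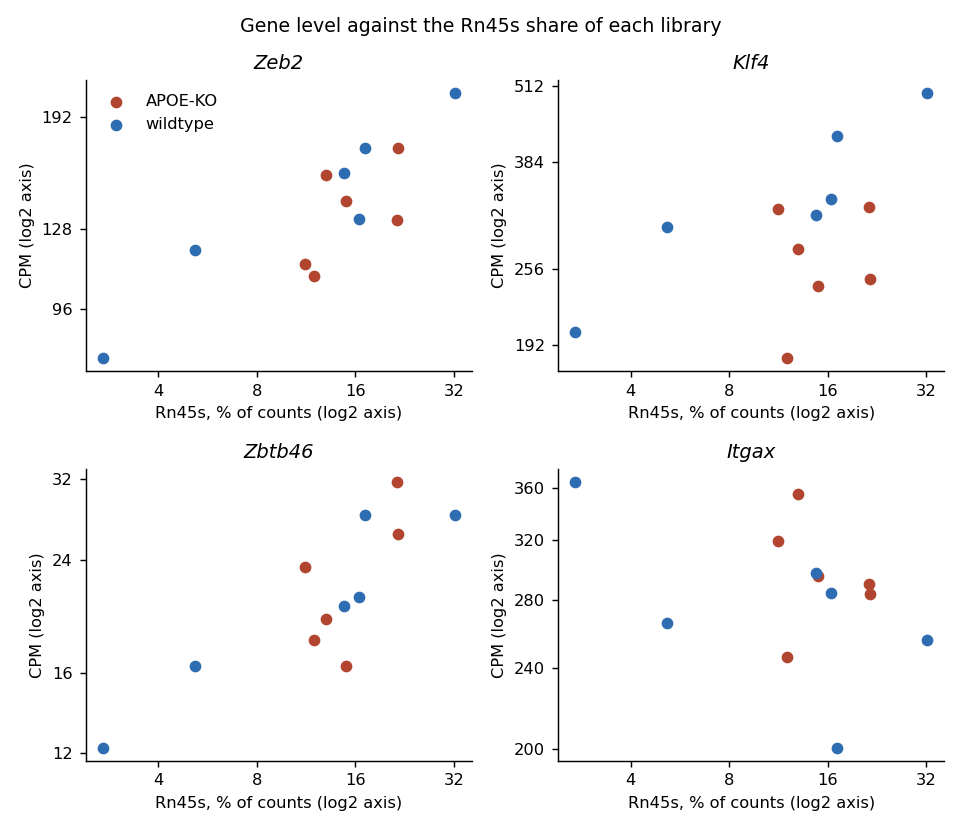
Level of 4 genes in CPM against the share of counts taken by Rn45s, 1 point per library, both axes on a log2 scale. Zeb2, Klf4 and Zbtb46 were lowest or second lowest in the wildtype library with 2.71% Rn45s, and Itgax was highest there.

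The promoters of Klf4 and Zeb2, nuclear factors with positive r against the Rn45s share, are shown beside those of Itgax and Flt3, which mark the lineage as a whole. They do not stand for genes that move together or apart: without the pair of libraries farthest from the median of Zeb2, its r was 0.32 with Klf4 and 0.64 with Flt3, against 0.74 and 0.35 over all 12. Each is the 250 bases before the start that RefSeq gives on GRCm38.p6, read 5′ to 3′ on the gene's strand (for Zeb2 the start nearest that of GENCODE, of 4 listed), at chr4:55532476-55532725 (minus), chr2:45117443-45117692 (minus), chr7:128129300-128129549 (plus) and chr5:147400490-147400739 (minus). The Zeb2 start lies 47 bases from that of GENCODE. The bases after it were not found in a GENCODE transcript of Zeb2, unlike those of Klf4, Itgax and Flt3. Capitals mark matches, on either strand, to the PU.1 core GGAAGT, the GC box GGGCGG, the ZEB E-box CACCTG, the RBPJ core TGGGAA and the KLF box CACCC.
Klf4: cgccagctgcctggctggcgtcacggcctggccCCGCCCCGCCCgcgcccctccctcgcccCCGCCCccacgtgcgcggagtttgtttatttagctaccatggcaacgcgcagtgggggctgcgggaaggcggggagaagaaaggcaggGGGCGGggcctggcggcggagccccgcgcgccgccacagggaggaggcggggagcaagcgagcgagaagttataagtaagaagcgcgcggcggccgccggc
Zeb2: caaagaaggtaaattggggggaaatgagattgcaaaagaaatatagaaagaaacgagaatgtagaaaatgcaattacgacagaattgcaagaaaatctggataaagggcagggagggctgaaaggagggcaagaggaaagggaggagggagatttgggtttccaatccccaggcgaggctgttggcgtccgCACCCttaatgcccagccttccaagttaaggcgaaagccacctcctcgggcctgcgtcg
Itgax: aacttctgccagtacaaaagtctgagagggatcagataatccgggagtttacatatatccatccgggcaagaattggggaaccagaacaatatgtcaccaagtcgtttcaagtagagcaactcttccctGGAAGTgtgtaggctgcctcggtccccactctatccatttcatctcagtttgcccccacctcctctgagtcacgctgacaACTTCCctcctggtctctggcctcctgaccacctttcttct
Flt3: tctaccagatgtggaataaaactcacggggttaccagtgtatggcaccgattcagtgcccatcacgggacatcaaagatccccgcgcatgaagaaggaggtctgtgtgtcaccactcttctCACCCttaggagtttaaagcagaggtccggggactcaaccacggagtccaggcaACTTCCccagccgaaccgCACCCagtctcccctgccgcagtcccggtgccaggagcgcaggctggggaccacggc
The Klf4 window holds 4 GC boxes, some of whose matches overlap each other, and the Zeb2 window 1 KLF box. The Itgax window holds 2 PU.1 cores and the Flt3 window 1, beside 2 KLF boxes. Of 27025 windows of the same length in the RefSeq table, 19.99% hold the PU.1 core, 32.9% the GC box, 17.1% the ZEB E-box, 21.5% the RBPJ core and 51.3% the KLF box. The share of G and C was 74.0% for Klf4, 49.6% for Zeb2, 50% for Itgax and 59.2% for Flt3, and the median of all windows was 52.0%. Klf4 and Zeb2 share none of these motifs in their windows, and such matches are letters in a window, not sites. Zbtb46, a nuclear factor whose r against the Rn45s share was also positive, is not shown. Its listed start lies 35038 bases from that of GENCODE. The window before that start holds 3 KLF boxes, a motif also in the Zeb2 window, and 1 ZEB E-box.

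For each member the 3 genes closest to it over the 12 libraries were sought among 6066 genes averaging at least 20 CPM, by r of log2 CPM with the genotype means removed, so they are the 3 highest of 6066 values. For Itgax they were Emp3 (0.93), Ppp2r1b (0.88) and Bod1 (0.88), for Flt3 Tspan33 (0.91), Flot1 (0.91) and Cuedc2 (0.90), and for Zbtb46 Itpr2 (0.95), Dennd1b (0.94) and Cdk11b (0.94). For Irf4 they were Hcls1 (0.95), Psmd13 (0.88) and Fam134a (0.87), for Klf4 Ddx46 (0.95), Ino80e (0.92) and Usp36 (0.92), for Zeb2 Runx1 (0.96), Mkln1 (0.95) and Chd7 (0.95), and for Notch2 P4ha1 (0.93), Mak16 (0.85) and Ap3b1 (0.85). Sirpa lay closest to Sh3bp1 (0.92), Rasa3 (0.90) and Wdr13 (0.86), and Itgam to Mbtd1 (0.95), Lamtor5 (0.95) and Prg3 (0.90). None of these genes passed the test between genotypes, and no member was among the 3 closest of another.

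Of the other genes of cDC2, none passed as higher in APOE-KO, the direction of Sirpa. Of 17 tested, 0 rose and 1 fell, against 1.08% and 0.411% of all genes, and the median log2 fold change was -0.11. The gene that fell was Clec10a, a galactose-binding lectin of cDC2 and macrophages, with lowest, median and highest levels of 61.1, 88.3 and 108 CPM in APOE-KO and 117, 157 and 203 CPM in wildtype. Every APOE-KO library was below every wildtype library, and the log2 fold change was -0.88 ± 0.16 (adjusted p = 0.00345; 0.00299 to 0.0158 with 1 library left out). Mgl2, its close copy, had 31.8 ± 11.7 CPM in APOE-KO and 43.6 ± 14.3 CPM in wildtype (adjusted p = 0.461), and the counting could split reads between the pair. Macrophages also make Clec10a, and 3 of their 12 tested markers fell with it: Marco had 83.2 ± 16.4 CPM in APOE-KO and 243 ± 53.7 CPM in wildtype (log2 fold change -1.54, adjusted p = 3.15e-06), Mrc1 17.2 ± 7.57 and 46.0 ± 10.7 CPM (-1.41, adjusted p = 0.00342) and Timd4 41.9 ± 12.2 and 90.3 ± 20.6 CPM (-1.10, adjusted p = 0.00223). Of 14 alternatives other than single libraries left out, Marco passed in 14. Mrc1 and Timd4 passed in 11 each, not with plasmacytoid, B cell or epithelial markers as a covariate. Their log2 fold changes there were -1.34, -1.21 and -1.57 for Mrc1 and -0.97, -0.57 and -1.15 for Timd4. The complement gene C1qb rose (0.60, adjusted p = 0.0391). It passed in 4 of the 12 fits that left out 1 library, with an adjusted p up to 0.142 (without APOE-KO library 4). Of the 14 alternatives, C1qb passed in 9. The other 8 macrophage markers did not pass, and the summed macrophage markers overlapped between the genotypes. The part of macrophages in the Clec10a difference was not tested. With plasmacytoid markers as a covariate the Clec10a log2 fold change was -0.69 (adjusted p = 0.163), and with B cell markers -0.94 (adjusted p = 0.199). The lectin Cd209a stood at 55.5 ± 23.0 and 56.9 ± 15.03 CPM, and Esam, a marker of the NOTCH2-dependent subset in spleen, at 18.5 ± 5.27 and 20.2 ± 5.98 CPM. The most abundant genes of the list, S100a4 and Csf1r, had log2 fold changes of 0.20 and 0.09 (adjusted p = 0.568 and 0.881).

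**Figure D5:**
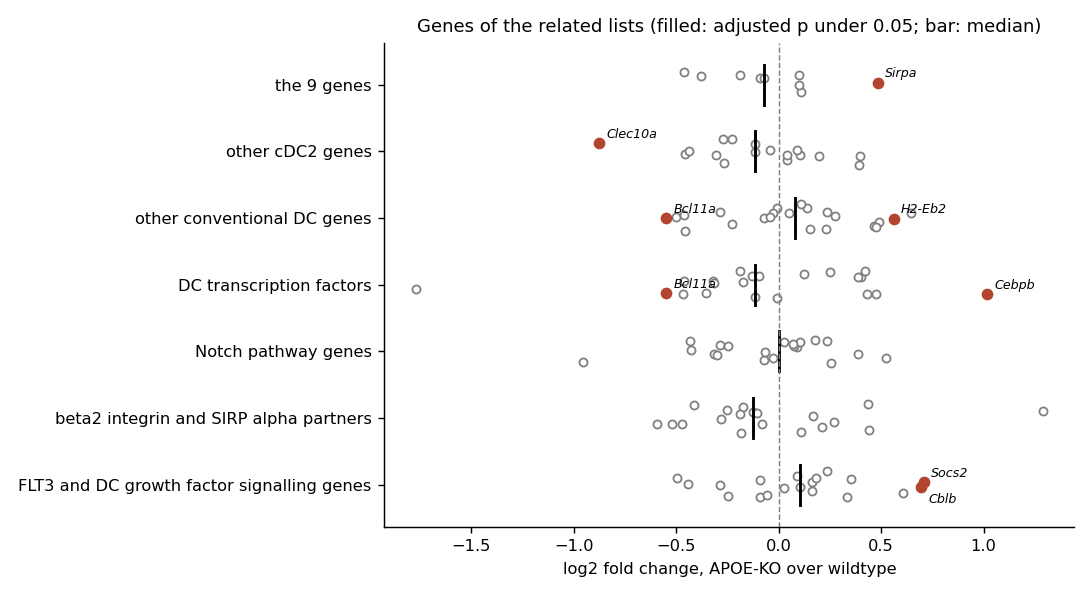
Log2 fold change of every tested gene, APOE-KO over wildtype, for the 9 genes and 6 related lists; filled points have an adjusted p under 0.05 and are named, and bars are medians. Medians lie between -0.12 and 0.10, and Clec10a at -0.88 and Cebpb at 1.02 are the called genes farthest from 0.

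Other genes of conventional dendritic cells moved both ways. Of 22 tested, 1 rose and 1 fell, with a median log2 fold change of 0.08. H2-Eb2, an MHC class II beta chain, had lowest, median and highest levels of 117, 161 and 180.0 CPM in APOE-KO and 97.7, 104 and 111 CPM in wildtype, with no overlap (log2 fold change 0.56 ± 0.13, adjusted p = 0.0261). Its call ended without APOE-KO library 1, 3, 4 or 6 or wildtype library 5 or 6 (adjusted p up to 0.0881). It also ended with total counts only, a replicate block, and plasmacytoid, B cell or epithelial markers (adjusted p = 0.166, 0.124, 0.365, 0.564 and 0.0785). The log2 fold change of H2-Eb2 in those fits was 0.51, 0.55, 0.44, 0.50 and 0.73, in the same order. Bcl11a, a factor of plasmacytoid and early dendritic cells, had 225 ± 36.9 CPM in APOE-KO and 330.0 ± 57.7 CPM in wildtype (log2 fold change -0.55 ± 0.14, adjusted p = 0.0435), with groups that overlapped. Of the fits that left out 1 library, Bcl11a passed only without APOE-KO library 2 or wildtype library 3 or 4, and the highest adjusted p was 0.140. With the plasmacytoid markers, which fell with the genotype, as a covariate the log2 fold change of Bcl11a was -0.29 (adjusted p = 0.587), and its call also ended with B cell or epithelial markers, with a replicate block and without the 3 libraries that stood apart (0.631, 0.614, 0.0916 and 0.0507). With B cell or epithelial markers, a block, or without the 3 libraries, the log2 fold change of Bcl11a was -0.47, -0.52, -0.55 and -0.50. The abundant cystatin Cst3 and the factor Id2 had log2 fold changes of 0.23 and 0.47 (adjusted p = 0.460 and 0.0733).

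Among 21 transcription factors of dendritic cells, Bcl11a fell and Cebpb rose, with a median log2 fold change of -0.12. Cebpb, a factor of monocytic and activated myeloid cells, had lowest, median and highest levels of 26.0, 33.5 and 67.0 CPM in APOE-KO and 12.8, 19.7 and 23.9 CPM in wildtype, with no overlap (log2 fold change 1.02 ± 0.24, adjusted p = 0.0301). APOE-KO library 6 was far above the other 5, and without it the log2 fold change was 0.77 and the adjusted p 0.145. The call also ended without APOE-KO library 1 or 4 or wildtype library 2, 4 or 5, with total counts only, and with plasmacytoid, B cell or epithelial markers (adjusted p = 0.0624, 0.269, 0.304 and 0.747). Irf8, the factor of type 1 and plasmacytoid cells, had a log2 fold change of -0.32 (adjusted p = 0.376), and of -0.165 without wildtype library 1. Of the 9 markers of type 1 dendritic cells, Irf8 included, 0 passed and 8 were negative (median -0.26). Among all 10714 genes tested, 5652 were negative. The marker that was positive was Batf3, at 0.40 (adjusted p = 0.268).

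Notch pathway genes, which include the ligands, the cleaving proteases and the nuclear partner of NOTCH2, gave 0 calls of 20 tested in edgeR's quasi-likelihood test, in DESeq2 and in limma-voom, with 10 positive and 10 negative log2 fold changes and a median of 0.00; 1 of the 20 had an unadjusted p under 0.05 in edgeR's test. Rbpj, the nuclear partner, stood at 89.7 ± 12.6 CPM in APOE-KO and 94.4 ± 11.4 CPM in wildtype, the sheddase Adam17 at 136 ± 19.0 and 128 ± 21.6 CPM, and the target gene Hes1 at 39.1 ± 4.44 and 48.3 ± 13.1 CPM (adjusted p = 0.557). The partners of the beta2 integrins and of SIRP alpha gave 0 calls of 19 in the same 3 tools, with a median of -0.12. Of these, 3 had an unadjusted p under 0.05 in edgeR's test, a level that 12.1% of all genes reached. Itgb2, the beta chain that pairs with the products of Itgax and Itgam, had 186 ± 19.6 CPM in APOE-KO and 196 ± 36.3 CPM in wildtype (log2 fold change -0.08 ± 0.14, adjusted p = 0.885). Cd47, which encodes the ligand of SIRP alpha, had 294 ± 52.5 and 243 ± 44.6 CPM (log2 fold change 0.27 ± 0.14, adjusted p = 0.460). The phosphatase genes Ptpn6 and Ptpn11 had log2 fold changes of -0.11 and -0.41 (adjusted p = 0.848 and 0.229), and the most abundant genes of the list, Rap1b and Fyb, of 0.11 and -0.19.

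In the list around FLT3 and the growth factors of dendritic cells, 2 of 19 genes rose and 0 fell (median 0.10). Of all genes 1.08% rose and 0.411% fell. Socs2, a suppressor of cytokine signals, had lowest, median and highest levels of 174, 263 and 321 CPM in APOE-KO and 138, 140.4 and 199.9 CPM in wildtype (log2 fold change 0.71 ± 0.15, adjusted p = 0.0133). Cblb, a ubiquitin ligase, had 114, 152 and 171 CPM in APOE-KO and 70.3, 85.9 and 123 CPM in wildtype (log2 fold change 0.69 ± 0.15, adjusted p = 0.0160; 0.0523 without APOE-KO library 6). The call of both ended with total counts only (adjusted p = 0.0764 for both) and with a replicate block, which has no basis in pairing (0.0741 for both). It also ended with plasmacytoid markers as a covariate (0.307 for Socs2 and 0.245 for Cblb) and with B cell markers (0.334 and 0.261). In each of these fits 0 of the 19 genes passed. With epithelial markers Cblb did not pass either (0.134). With total counts, the block, plasmacytoid and B cell markers, the log2 fold change of Socs2 was 0.66, 0.69, 0.57 and 0.75. That of Cblb was 0.66, 0.70, 0.65 and 0.81 in the same order, and 0.78 with epithelial markers. In both genes 1 wildtype library, number 2, reached into the APOE-KO range. The gene of the FLT3 ligand, Flt3l, had 43.1 ± 6.03 CPM in APOE-KO and 46.3 ± 16.6 CPM in wildtype (adjusted p = 0.918), and the receptor gene Kit 56.4 ± 7.32 and 68.7 ± 12.0 CPM (adjusted p = 0.481). Stat3 and Pik3cd, the most abundant genes of the list, had log2 fold changes of -0.06 and -0.09 (adjusted p = 0.916 and 0.827).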

How the data were processed

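Lexogen 3' FWD libraries were sequenced, per the labels' protocols. The authors deposited whole-number read counts per gene symbol, not normalised; the submitters' processing notes name STAR 2.7.8a, featureCounts 1.5.1, R 4.1.0, DESeq2 1.4 and build mm10. The sources used here do not give the annotation, strand setting, treatment of shared reads or molecular identifiers. A 3' library gives reads near transcript ends, so counts do not grow with length. At these depths 3 reads in 1 library stand for 0.525 to 1.59 CPM, for counting error only.

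Counts were analysed with edgeR 4.0.16 (filterByExpr with minimum count 10 and total 15, TMM factors, glmQLFit and glmQLFTest on genotype, 12 libraries) in R 4.3.3, with Benjamini-Hochberg adjustment over 10714 genes and a threshold of 0.05. SEs were taken as the absolute log2 fold change divided by the root of F. Log2 CPM used a prior count of 2, ratios to Itgax one of 0.5. Permutations (100000) stayed within genotype. On simulated data of 10714 genes for this comparison, 10%, 55.2% and 77.2% of genes changed 1.4-fold, 2-fold and 3-fold were recovered, and 2.99% of calls were false. Positions are those of GENCODE vM21 (GRCm38, as mm10).

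The 9 genes, the lists and the named genes (list members past the threshold, the most abundant of each pathway list, the closest 3 genes; of marker lists counts and sums are given, and the macrophage markers past the threshold) were chosen with earlier results of these data known. Mgl2, Cd209a, Esam, Batf3, Itgb2, Cd47, Ptpn6, Ptpn11, Hes1, Flt3l, Kit, Sirpb1a and Sirpb1b were named after their values were seen. Jaml was found under an older symbol, and 4 other list symbols were not matched. Alternatives were other size factors and filters, DESeq2 1.42.0, limma-voom (limma 3.58.1), robust dispersion, a replicate block, covariates and leaving out libraries. Libraries with the same number did not deviate together.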

Additional observations from a re-analysis of the deposited data

Results flagged for a closer look

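Of 86 groups of 6 libraries examined for a library far from the rest, 10 held one, where chance flags about 1 in 20. Notch2 stood at 78.84 CPM in APOE-KO library 5, against 95.67 to 103.5 CPM in the other APOE-KO libraries. Cebpb stood at 66.96 CPM in APOE-KO library 6, against 25.98 to 40.3 CPM in the others. C1qb stood at 161.5 CPM in APOE-KO library 4, against 95.75 to 114.4 CPM in the others. Socs2 stood at 199.9 CPM in wildtype library 2, against 138.1 to 156.7 CPM in the others. In wildtype library 1, Irf8 stood at 3117 CPM (1614 to 2039 in the other wildtype libraries), Tcf4, a factor of plasmacytoid cells, at 953.9 CPM (518.8 to 652.4) and the plasmacytoid marker sum at 3183 CPM (1481 to 1971). The B cell marker sum was 616.8 CPM in APOE-KO library 3 (714.3 to 763.2 in the others), the NK cell marker sum 143.4 CPM in APOE-KO library 6 (19.15 to 44.84) and the epithelial marker sum 76.05 CPM in APOE-KO library 4 (0.848 to 19.69).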

How the results depend on the processing

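Among all genes 160 passed, and between 108 and 233 under most alternatives. The count was 88 with total counts only (60.2% of calls higher in APOE-KO, against 72.5%), 297 with DESeq2 and 100 with a replicate block. It was 335, 39, 14 and 41 with the Rn45s share, plasmacytoid, B cell or epithelial markers as a covariate, and 99 to 230 with 1 library left out. The covariates and leaving out 3 libraries together were chosen after seeing the data. The summed B cell markers did not overlap between the genotypes, so with them as a covariate genotype and marker level are poorly separated. The plasmacytoid sums overlapped narrowly, with a highest APOE-KO sum of 1549 CPM and a lowest wildtype sum of 1481 CPM. Apart from library 4 at 76.05 CPM, the epithelial sums were 0.848 to 19.69 CPM in APOE-KO, against 33.99 to 75.4 CPM in wildtype. A call that ended with any of these covariates therefore does not tell genotype from marker level.

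Of the 9 genes, 0 passed with total counts only, the block, each marker covariate or without the 3 libraries, 2 with the Rn45s share, and 0 to 1 with 1 library left out. Sirpa was then 0.425 (total counts), 0.4898 (block), 0.2855, 0.4945 and 0.4834 (plasmacytoid, B cell and epithelial markers) and 0.4237 (3 libraries out), with adjusted p of 0.0669 to 0.504, and 0.424 to 0.5326 with 1 library left out. Klf4 was -0.4666 with the Rn45s share, -0.02885 with plasmacytoid and -0.01609 with B cell markers. Of 14 alternatives other than single libraries left out, Clec10a passed in 12, Cebpb and Socs2 in 10, H2-Eb2, Bcl11a and Cblb in 9, and Sirpa in 8.

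Reversed log2 fold changes were 0.004161 for Zeb2 in limma-voom, -0.02802 for Zbtb46 with the Rn45s share, -0.0848 for Itgax with B cell markers, -0.1078 for Zbtb46 and 0.02203 for Rbpj with epithelial markers, and -0.01146 for Csf1r without the 3 libraries. With plasmacytoid markers they were 0.09247 for Irf4, 0.3179 for Zeb2, -0.06005 for Csf1r, 0.09973 for Irf8, -0.008699 for Adam17, -0.08342 for Rap1b, 0.01294 for Fyb and 0.1526 for Stat3. With 1 library left out, Irf4 ran from -0.1615 to 0.01111, Zeb2 from -0.1874 to 0.05457, Zbtb46 from -0.01266 to 0.2155, Csf1r from -0.006289 to 0.1719 and Stat3 from -0.1046 to 0.02339. The cause was not tested. Same-numbered libraries correlated at -0.08 to 0.02, and 0 of 6 matched their own number best, so the block has no basis in pairing. In simulated data 10% of 1.4-fold changes were recovered. The changed genes were drawn at random from all tested genes, so this is not the share for a gene as abundant as Sirpa.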
